A study of Mus musculus with 14 samples.

Results

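The TET dioxygenases Tet1, Tet2 and Tet3 were followed together with their functional partners Idh1, Idh2 and Ogt in mouse blood progenitors with and without Tet2. The members were all probe sets that the platform annotation assigns to 1 of these 6 genes, each kept apart, which gave 16 probe sets of the 45101 on the array and 6 of the 18194 genes with a probe set of their own. Tet1 has 4 probe sets, Tet2 has 2, Tet3 has 1, Idh1 has 2, Idh2 has 2 and Ogt has 5. The study profiled total RNA on 14 Affymetrix Mouse 430 2.0 arrays in 7 groups of 2 arrays. The controls (WT) were Tet2+/+ Mx+ and the knockouts (KO) Tet-/- Mx+, littermates on a B6/129 background. Both genotypes thus carry Mx, the interferon-inducible promoter that drives Cre, and deletion was induced by injection of pIC, a synthetic double-stranded RNA. From each genotype, 3 bone marrow populations without lineage markers were sorted. LSK cells, positive for Kit and Sca1, hold the stem cells, CMP are common myeloid progenitors, and GMP (Fc gamma receptor high, CD34 positive) are granulocyte-macrophage progenitors. LSK and CMP cells were taken 4 weeks after deletion, and no time is given for GMP. The seventh group, called replated KO here, grew from Tet2-deficient CD150+ LSK cells that were replated 5 times in colony culture, with no replated WT group analysed here. From each sample, 5 ng of RNA was amplified to cDNA and biotin-labelled. Whether both arrays of a group stem from different mice or cultures is not stated. A p-value here reflects the spread between the 2 arrays of a group, pooled over all 7 groups, and that spread may be technical.

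TET enzymes oxidise 5-methylcytosine in DNA to 5-hydroxymethylcytosine and further products, a route to removal of the methyl mark, and they need oxygen, iron and 2-oxoglutarate. Idh1 in the cytosol and Idh2 in mitochondria make 2-oxoglutarate from isocitrate while reducing NADP, and mutant forms of either enzyme make 2-hydroxyglutarate, which inhibits TET enzymes. Ogt attaches O-GlcNAc sugars to proteins and is brought to chromatin by Tet2 and Tet3. TET2 and both IDH genes are recurrently mutated in human myeloid disease.

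The bases before the transcription starts of Tet1, Tet2 and Idh2 are shown because these were the genes with a probe set that changed in every comparison of replated with sorted KO cells, and because TET enzymes act on the cytosine of CG pairs. The sequences are from RefSeq on GRCm38.p6, each 250 bases long up to the start, read on the gene's strand, with CG pairs in capitals (a CG reads the same on both strands). They lie at chr10:62887325-62887574 for Tet1, chr3:133544391-133544640 for Tet2 and chr7:80115351-80115600 for Idh2, all on the minus strand.
Tet1: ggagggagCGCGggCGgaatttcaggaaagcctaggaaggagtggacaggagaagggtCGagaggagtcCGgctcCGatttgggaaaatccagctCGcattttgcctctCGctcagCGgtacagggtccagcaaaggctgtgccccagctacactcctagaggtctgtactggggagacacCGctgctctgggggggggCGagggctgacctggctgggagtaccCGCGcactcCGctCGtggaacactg
Tet2: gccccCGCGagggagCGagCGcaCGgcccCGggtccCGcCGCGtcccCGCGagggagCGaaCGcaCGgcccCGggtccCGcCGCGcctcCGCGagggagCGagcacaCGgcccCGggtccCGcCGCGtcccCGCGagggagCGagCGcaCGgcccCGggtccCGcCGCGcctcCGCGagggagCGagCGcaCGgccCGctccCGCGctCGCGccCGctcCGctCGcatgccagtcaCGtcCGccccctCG
Idh2: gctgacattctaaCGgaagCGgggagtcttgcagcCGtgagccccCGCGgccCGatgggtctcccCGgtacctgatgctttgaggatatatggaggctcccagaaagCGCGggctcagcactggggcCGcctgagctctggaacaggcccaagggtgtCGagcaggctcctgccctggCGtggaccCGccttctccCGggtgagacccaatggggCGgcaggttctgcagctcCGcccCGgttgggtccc
The Tet1 stretch holds 15 CG pairs, a count reached by 27.3% of the 32851 promoters in the same table, and the Idh2 stretch holds 17, reached by 23.5%. The Tet2 stretch holds 51, reached by 0.067%, against a median of 6 over all promoters, of which 92.1% hold 1 or more. The Tet3 stretch, not printed, holds 17, those of Idh1 hold 22 and 18 and those of Ogt 15 and 13. These counts describe the letters only, since methylation was not measured on these arrays.

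A level below is the mean of a group's 2 arrays taken on the log2 scale and turned back to intensity, and a difference is on the log2 scale with its standard error from limma. Called means an adjusted p under 0.05 from limma, Benjamini-Hochberg over all probe sets. The brightest of 27 bacterial control probe sets set each array's floor, between 20.8 and 27.8. All 16 probe sets lay above the floor on 12 or more arrays, so none was left out. Each count of members called is given with the share of all probe sets called. That share includes many probe sets near the floor. The 16 members stem from 6 genes, so their calls are not independent. KO and WT averaged over the 3 populations differed in 0 of 16 members (0.248% of all probe sets called). An unadjusted p under 0.05 was seen for 5 members and for 8.79% of all probe sets. Within LSK, 0 of 16 were called (0.295%), with 5 at an unadjusted p under 0.05 (9.8% of all probe sets). The same count was 0 in CMP (0.0843%), with 1 at an unadjusted p under 0.05 (6.16%), and 0 in GMP (0.071%), with 0 (4.34%). A KO effect that differed between populations was called for 0 members and for 0% of all probe sets. An unadjusted p under 0.05 was seen for 0 members and 5.84% of all probe sets. Replated KO cells differed from KO LSK in 8 of 16 members (19% of all), from KO CMP in 7 (18.3%) and from KO GMP in 6 (19%). These 3 comparisons share the replated arrays. Among WT populations, GMP against LSK called 2 members (4.3% of all), CMP against LSK 0 (0.814%) and GMP against CMP 0 (0.415%). In the last pair of comparisons, 4 and 2 members had an unadjusted p under 0.05, against 10% and 8.33% of all probe sets. Any difference among the 7 groups was called for 7 members (19.1%). The share of all probe sets whose arrays do not overlap was counted for KO against WT only, not between populations or for replated cells. Within a population it ran from 15.4% to 21.1% in either direction.

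Sex-linked genes separate the arrays and touch the comparisons of KO with WT and of replated with sorted KO. Xist, the RNA that silences one X chromosome, was at 18.7 to 29.7 in WT, 4980 to 6634 in sorted KO and 18.4 to 21.9 in replated KO arrays. The Y-linked Eif2s3y ran the other way, at 772 to 1203 in WT, 6.47 to 12.5 in sorted KO and 2056 to 2083 in replated KO. Genotype among the sorted cells and these sex-linked levels therefore cannot be told apart, and replated and sorted KO cells also differ in them. The replated arrays carried markers of mast cells and basophils, with 8 of 8 above the floor and a summed intensity of 61117 to 63210, against 427 to 3397 in the sorted groups. Of that list, the mast cell protease Cma1 reached 15287 to 15569 and Fcer1a, a chain of the IgE receptor, 13629 to 14796. Not every member of the list was highest there. Mcpt8 was at 485 to 496 in replated KO, below the 857 to 1022 of KO GMP and the 543 to 779 of KO CMP. Only the 113 to 163 of KO LSK lay under it among the sorted KO groups. Neutrophil markers summed to 107 to 119 in replated KO against 11975 to 20687 in the sorted groups. In replated KO, 0 of 4 monocyte and macrophage markers lay above the floor, and Mpo, a granule enzyme of GMP, was at 14.1 to 14.2. Some markers also moved with genotype, in both directions. The monocyte and macrophage list summed to 2461 to 2895 in KO against 3610 to 4768 in WT CMP. In GMP it summed to 5106 to 5289 against 4098 to 4287. The megakaryocyte list summed to 2842 to 3194 in KO against 2661 to 2662 in WT CMP. In GMP it summed to 1275 to 1346 against 1749 to 1795. Slamf1, the gene of CD150, was at 370 to 557 in KO against 113 to 183 in WT LSK. The 3 dendritic cell markers, all above the floor in each group, summed to 825 to 1170 in KO against 447 to 522 in WT CMP, to 796 to 867 against 342 to 522 in GMP, and to 2545 to 4781 against 1087 to 2691 in LSK. Fcer1a was at 745 to 823 in KO against 34.9 to 57.3 in WT CMP, 321 to 505 against 85.3 to 103 in GMP and 125 to 160 against 6.32 to 24.7 in LSK. Some other members of its list went the other way. Ms4a2, another chain of that receptor, was at 345 to 395 in KO against 443 to 655 in WT GMP. Cma1 was at 24.1 to 34.4 against 50.9 to 64.3 there, and Cpa3 at 98.0 to 144 in KO against 191 to 301 in WT LSK. The summed mast cell and basophil list overlapped between genotypes in LSK and GMP. In CMP it summed to 2771 to 3015 in KO against 2009 to 2117 in WT. Kit lay above the floor in every group, and Ly6a, which encodes Sca1, has no probe set of its own here, so Sca1 was not checked. The GMP list, led by Mpo, summed to 36539 to 38489 in GMP, above the 17695 to 25442 of LSK and CMP. The 3′ minus 5′ log2 difference of Actb, a measure of RNA quality, lay between 0.99 and 1.23 and that of Gapdh between 0.58 and 0.81, with both replated arrays the highest for Gapdh. That of the transferrin receptor controls was larger and more variable, at 4.01 to 5.46. It ran high in CMP, at 5.14 to 5.46, against 4.01 to 5.33 in the other groups, with overlap. The part of this measure in differences between populations was not tested. The part of cell makeup, RNA quality or sex-linked differences in the results on replated cells, and of these markers in KO against WT, was not tested. In bulk RNA, fewer cells that express a gene and less of its RNA per cell cannot be told apart.

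Tet1, which carries a CXXC DNA-binding domain, was measured in all sorted populations and was near background in replated KO cells. Its brightest probe set, 1455425_at, read 1366 and 713 in WT LSK, 481 and 869 in KO LSK, 792 and 598 in WT CMP, and 588 and 812 in KO CMP. It read 563 and 363 in WT GMP, 636 and 424 in KO GMP, and 23.1 and 40.4 in replated KO. Every sorted array was above both replated arrays, and WT and KO arrays overlapped in each population. The replated level of 30.6 was 4.40 ± 0.45 (log2, SE) below the KO LSK level of 647, a 21.2-fold difference (adjusted p = 0.000137). Against the KO CMP level of 691 the difference was -4.50 ± 0.45 (adjusted p = 0.000124), and against the KO GMP level of 519 it was -4.09 ± 0.45 (adjusted p = 0.000217). All 3 calls held with each array left out in turn and under every alternative setting run. In order of level the groups ran WT LSK (987), KO CMP, WT CMP, KO LSK, KO GMP, WT GMP (452) and replated KO. In that order, the step from WT GMP to replated KO was the one whose 95% limma interval excluded 0. WT GMP stood 1.13 ± 0.45 below WT LSK with no overlap of arrays, which did not pass after adjustment (adjusted p = 0.235).

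The other Tet1 probe sets were dimmer and also lowest in replated KO. Probe set 1429448_s_at, whose suffix marks probes that can match several transcripts, read 25.5 and 13.2 in replated KO against 83.7 to 237 over the 6 sorted KO arrays. One of those replated readings, 13.2, was under the floor. It fell by 2.97 ± 0.61 from KO LSK (adjusted p = 0.00793), fell by 2.94 ± 0.61 from KO CMP (adjusted p = 0.00871) and fell by 2.93 ± 0.61 from KO GMP (adjusted p = 0.00842). All 3 calls were lost without replated replicate 2 (adjusted p = 0.0715, 0.0766 and 0.0749). The CMP call was also lost without KO CMP replicate 1 (0.0564), and the GMP call without KO GMP replicate 2 (0.0545).
Probe set 1419896_at read 9.10 and 21.1 in replated KO, under the floor on both arrays, and 29.6 to 142 in sorted KO. Set against the floor it was at least 2.89-fold lower than in KO LSK (adjusted p = 0.0481), at least 6.06-fold lower than in KO CMP (adjusted p = 0.00798) and at least 4.22-fold lower than in KO GMP (adjusted p = 0.0179). The CMP and GMP calls were lost without replated replicate 1 (adjusted p = 0.0715 and 0.139). The GMP call was also lost without KO GMP replicate 1 (0.0989) or 2 (0.0657), and the LSK call in most of the settings tried, with adjusted p from 0.00466 to 0.28 when 1 array was left out. The lowest of the KO LSK arrays, replicate 1, read 29.6 here, below every other sorted array.
Probe set 1419897_at read 35.6 and 34.3 in replated KO, above the floor, and 43.2 to 116 in sorted KO. It fell by 1.46 ± 0.40 from KO CMP (adjusted p = 0.0338), a call lost without either KO CMP or either replated array (adjusted p 0.0892 to 0.145). Its differences from KO LSK, -1.02 ± 0.40 (adjusted p = 0.121), and from KO GMP, -0.99 ± 0.40 (adjusted p = 0.137), were not called. The LSK difference rested on which KO LSK array was kept, at -1.74 without replicate 1 (adjusted p = 0.00436) and -0.31 without replicate 2 (adjusted p = 0.562). The GMP difference passed without either KO LSK array (adjusted p = 0.0177) and with only the arrays compared (0.0217). Averaged over populations, KO minus WT was -0.13 ± 0.26, 0.47 ± 0.35, -0.28 ± 0.38 and -0.24 ± 0.23 for the 4 Tet1 probe sets in the order given, with adjusted p from 0.755 to 0.922. Over the 14 arrays the Tet1 probe sets correlated with one another at Pearson r of 0.71 to 0.93, which include the low readings of the replated arrays.

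**Figure D1:**
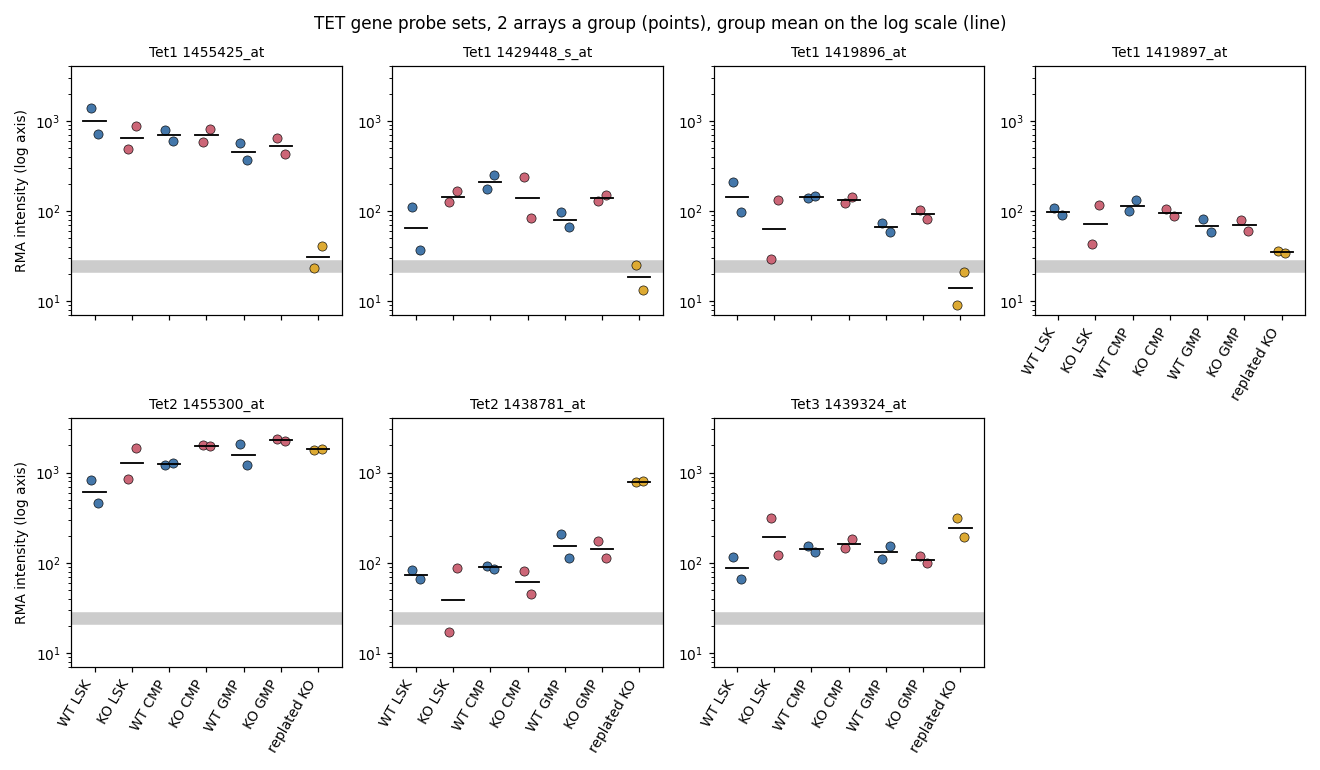
RMA intensity (log axis) of the 7 TET probe sets on each array, by group. Points are arrays, black lines the level of the 2 arrays and the grey band the range of the floor over the 14 arrays (20.8 to 27.8). Replated KO points are the lowest in all 4 Tet1 panels and the highest for Tet2 1438781_at.

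Tet2, the deleted gene and the TET member without a CXXC domain of its own, gave different pictures with its 2 probe sets. Where the probes lie relative to the deleted part was not known here, so neither probe set checks the genotype. Probe set 1455300_at read 829 and 454 in WT LSK against 855 and 1859 in KO LSK. It read 1225 and 1287 in WT CMP against 2011 and 1943 in KO CMP, and 2045 and 1204 in WT GMP against 2376 and 2228 in KO GMP. Both KO arrays were above both WT arrays in all 3 populations, a pattern shown by this 1 member and by 1.08% of all probe sets. KO minus WT was 1.04 ± 0.39 in LSK (adjusted p = 0.420), 0.65 ± 0.39 in CMP (adjusted p = 0.872) and 0.55 ± 0.39 in GMP (limma, adjusted p = 1). Averaged, it was 0.75 ± 0.23, with a 95% interval of 0.23 to 1.26 (unadjusted p = 0.00937, adjusted p = 0.341), and it did not pass. Dendritic cell markers also summed higher on KO than on WT arrays in CMP and GMP. Monocyte and macrophage markers summed lower on KO arrays in CMP and higher in GMP, and megakaryocyte markers the reverse. The part of these markers in the Tet2 readings was not tested. Among WT cells the level was 613 in LSK, 1256 in CMP and 1569 in GMP. CMP minus LSK was 1.03 ± 0.39 (adjusted p = 0.402) and GMP minus LSK was 1.36 ± 0.39 (adjusted p = 0.105). The last passed without either KO LSK array (adjusted p = 0.0477), which changes only the spread. Replated KO read 1786 and 1823, within the range of the sorted KO arrays, and differed by 0.52 ± 0.39 from KO LSK, -0.13 ± 0.39 from KO CMP and -0.35 ± 0.39 from KO GMP (adjusted p = 0.454, 0.896 and 0.666). In the order of levels, the step from WT CMP down to WT LSK, the lowest group, was the one whose 95% interval excluded 0.

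Probe set 1438781_at of Tet2 was far brighter in replated KO than in any sorted sample. It read 780 and 796 in replated KO, 17.0 and 87.2 in KO LSK, 81.5 and 45.2 in KO CMP, and 175 and 113 in KO GMP. The WT arrays read 82.6 and 65.9 in LSK, 92.1 and 86.4 in CMP, and 209 and 114 in GMP. No sorted array overlapped the replated ones, and of the KO LSK arrays, replicate 1 was under the floor. The replated level of 788 was 4.35 ± 0.66 above KO LSK, a 20.4-fold difference (adjusted p = 0.00154), and 3.70 ± 0.66 above KO CMP, or 13.0-fold (adjusted p = 0.00391). These calls held with each array left out in turn and under every alternative setting run, but the size of the first did not. It was 3.18 without KO LSK replicate 1, the array under the floor, and 5.53 without replicate 2. Against KO GMP it was 2.49 ± 0.66 higher, or 5.60-fold (adjusted p = 0.0272). That call was lost without KO GMP replicate 1 (adjusted p = 0.0671) or 2 (0.152), or without replated replicate 1 (0.115) or 2 (0.120). KO minus WT averaged over populations was -0.54 ± 0.38 (adjusted p = 0.737), the opposite sign to the other Tet2 probe set, and neither passed. GMP minus LSK in WT was 1.07 ± 0.66 (adjusted p = 0.471). The Tet2 probe sets correlated at r = 0.44 over the 14 arrays. They thus disagree on whether Tet2 RNA was higher in replated cells than in sorted ones. Every KO array read above the floor in both, except KO LSK replicate 1 for 1438781_at.

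Tet3, the TET enzyme that oxidises the paternal genome in the zygote, was measured with 1 probe set, 1439324_at. It read 117 and 65.6 in WT LSK, 314 and 121 in KO LSK, 155 and 132 in WT CMP, and 146 and 183 in KO CMP. It read 111 and 154 in WT GMP, 118 and 99.1 in KO GMP, and 316 and 191 in replated KO. KO LSK replicate 1 and replated replicate 1 were the highest arrays, and the spread within a group was wide. KO minus WT in LSK was 1.15 ± 0.46 without overlap of arrays, as 18% of all probe sets showed in that direction (adjusted p = 0.446), and averaged over populations it was 0.36 ± 0.26 (adjusted p = 0.750). Replated KO differed by 0.33 ± 0.46 from KO LSK (95% interval -0.70 to 1.37), by 0.59 ± 0.46 from KO CMP (-0.44 to 1.62) and by 1.19 ± 0.46 from KO GMP (0.16 to 2.22). None of these was called (adjusted p = 0.707, 0.486 and 0.115), although the last passed without either KO LSK array (0.0411) and with only the arrays compared (0.0428). GMP minus LSK in WT was 0.58 ± 0.46 (adjusted p = 0.595). The levels ran from 246 in replated KO to 87.6 in WT LSK, and no neighbours in that order differed beyond their 95% interval.

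Idh1, the cytosolic isocitrate dehydrogenase, rose from LSK to GMP among WT cells. KO readings ran in the same order, and no difference between KO and WT passed. Probe set 1422433_s_at read 3103 and 2740 in WT LSK, 4368 and 4348 in WT CMP, and 5287 and 5592 in WT GMP. In KO it read 3214 and 3267 in LSK, 4363 and 4289 in CMP, 5831 and 5514 in GMP, and 4296 and 4616 after replating. The 3 sorted populations did not overlap in either genotype. Probe set 1419821_s_at read 3781 and 3964 in WT LSK, 5567 and 5585 in WT CMP, and 6279 and 6720 in WT GMP. In KO it read 3419 and 4146 in LSK, 5203 and 6025 in CMP, 7097 and 6777 in GMP, and 4832 and 5827 after replating. Its sorted populations kept the same order without overlap, and the share of all probe sets with such an order was not counted. WT GMP exceeded WT LSK by 0.90 ± 0.12 for 1422433_s_at, 1.86-fold (adjusted p = 0.00384), and by 0.75 ± 0.15 for 1419821_s_at, 1.68-fold (adjusted p = 0.0274). The first call held with each array left out, and the second was lost without WT LSK replicate 1 (adjusted p = 0.116) or 2 (0.0580), or without WT GMP replicate 1 (0.0834) or 2 (0.147). Both were lost when only the arrays of the groups compared entered the fit (0.181 and 0.208). CMP minus LSK was 0.58 ± 0.12 (adjusted p = 0.0789) and 0.53 ± 0.15 (adjusted p = 0.216) for the same probe sets, and GMP minus CMP was 0.32 ± 0.12 (adjusted p = 0.480) and 0.22 ± 0.15 (adjusted p = 0.814). In the order of levels of 1422433_s_at, the steps below WT GMP and below KO CMP had a 95% interval that excluded 0. For 1419821_s_at this held for 1 step, from replated KO to WT LSK, and the step from WT GMP to KO CMP was 0.21 (-0.13 to 0.56). These intervals are not adjusted for the choice of neighbours by their order.

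KO minus WT averaged over populations was 0.07 ± 0.07 for 1422433_s_at, with a 95% interval of -0.09 to 0.22, and 0.02 ± 0.09 for 1419821_s_at, with an interval of -0.18 to 0.22 (adjusted p = 0.829 and 0.970). Replated KO exceeded KO LSK by 0.46 ± 0.12 for 1422433_s_at (adjusted p = 0.0257), a call lost without either KO LSK array (0.0881 and 0.0677) or either replated array (0.0697 and 0.146), and with only the arrays compared (0.162). For 1419821_s_at the same difference was 0.50 ± 0.15 and missed the threshold (adjusted p = 0.0506), though it passed with medians subtracted (0.0474), values raised to the floor (0.0340), trend and robust (0.0119), 1 probe set per gene (0.0373) and the replicate block (0.0398), and without KO LSK replicate 2 (0.0380). Replated KO lay close to KO CMP, at 0.04 ± 0.12 (95% interval -0.23 to 0.31) and -0.08 ± 0.15 (-0.42 to 0.26). It lay below KO GMP by -0.35 ± 0.12 (adjusted p = 0.0774) and -0.39 ± 0.15 (adjusted p = 0.123), neither called. Both probe sets carry the suffix for probes that can match several transcripts, and they correlated at r = 0.95.

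Idh2, the mitochondrial enzyme, was lower in replated KO cells by 1 of its 2 probe sets. Probe set 1450048_a_at, a design for several transcripts of one gene, read 577 and 476 in replated KO. It read 2224 and 1587 in KO LSK, 2102 and 1742 in KO CMP, and 2514 and 2403 in KO GMP. In WT it read 1205 and 1798 in LSK, 2099 and 1986 in CMP, and 2326 and 2168 in GMP. Every sorted array was above the replated arrays. The replated level of 524 was 1.84 ± 0.23 below KO LSK, a 3.58-fold difference (adjusted p = 0.000489). It was 1.87 ± 0.23 below KO CMP, or 3.65-fold (adjusted p = 0.000455), and 2.23 ± 0.23 below KO GMP, or 4.69-fold (adjusted p = 0.000148). These 3 calls held with each array left out and under every alternative setting run. KO minus WT averaged was 0.13 ± 0.13 (adjusted p = 0.828). Among WT cells, CMP minus LSK was 0.47 ± 0.23 (adjusted p = 0.557) and GMP minus LSK 0.61 ± 0.23 (adjusted p = 0.210).

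The other Idh2 probe set, 1453601_at, did not show the lower reading. It read 1250 and 1033 in replated KO, and from 929 to 1332 over the 12 sorted arrays, so all groups overlapped or lay close. Replated KO differed from KO LSK by 0.04 ± 0.19, with a 95% interval of -0.40 to 0.48, which excludes the difference of the first probe set. Against KO CMP it was 0.14 ± 0.19 (-0.29 to 0.58) and against KO GMP -0.05 ± 0.19 (-0.48 to 0.39). KO minus WT averaged was 0.13 ± 0.11 (adjusted p = 0.792). The 2 probe sets correlated at r = -0.12 over the 14 arrays, and which transcripts each of them reads was not examined.

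**Figure D2:**
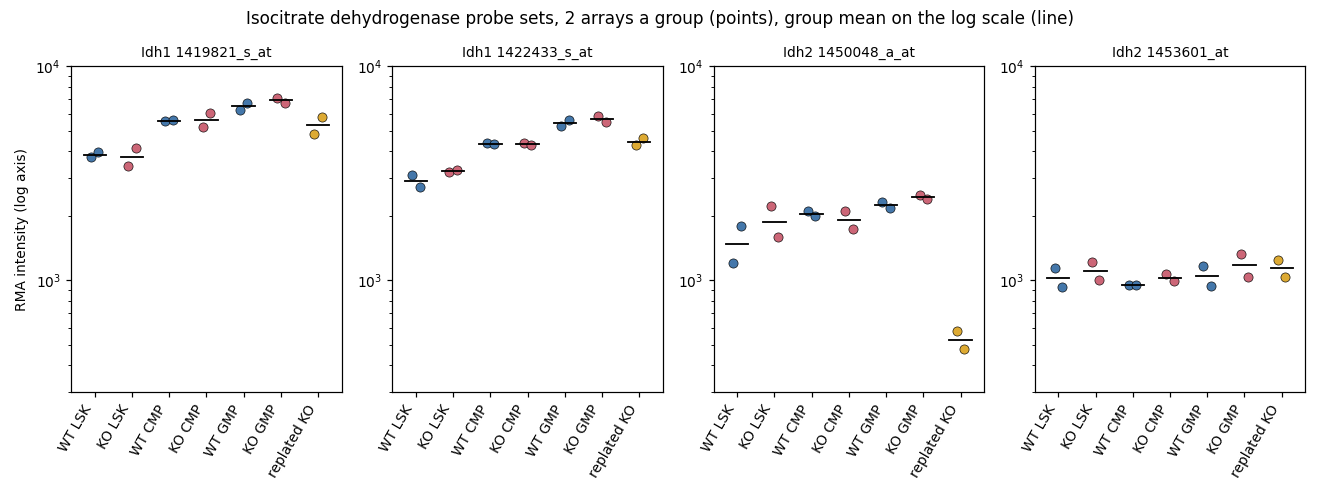
RMA intensity (log axis) of the 4 Idh1 and Idh2 probe sets on each array, by group; points are arrays and black lines the level of the 2 arrays. Idh1 readings are higher in GMP than in LSK in both genotypes. Idh2 1450048_a_at drops to 577 and 476 in replated KO, where Idh2 1453601_at stays at 1250 and 1033.

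Ogt, the O-GlcNAc transferase, is encoded on the X chromosome, so the sex-linked difference between WT and sorted KO arrays lies beside every value here. Probe set 1460631_at read 3376 and 3037 in WT LSK against 2173 and 2775 in KO LSK. It read 3335 and 3273 in WT CMP against 2790 and 2357 in KO CMP, and 2866 and 3020 in WT GMP against 2657 and 2506 in KO GMP. Probe set 1425516_at read 1825 and 1544 in WT LSK against 655 and 1119 in KO LSK. It read 1389 and 1500 in WT CMP against 1320 and 1045 in KO CMP, and 1232 and 1440 in WT GMP against 1105 and 1044 in KO GMP. For these 2 members both KO arrays were below both WT arrays in all 3 populations, as for 0.958% of all probe sets. KO minus WT averaged was -0.31 ± 0.09 for 1460631_at (95% interval -0.51 to -0.11, adjusted p = 0.305) and -0.53 ± 0.14 for 1425516_at (-0.84 to -0.21, adjusted p = 0.272). It was -0.40 ± 0.14 for 1425517_s_at (adjusted p = 0.411), -0.84 ± 0.25 for the dim 1451738_at (adjusted p = 0.327) and -0.15 ± 0.26 for the dim 1436780_at (adjusted p = 0.917). All 5 averages were below 0 and none passed. The same arrays differ in dendritic cell, monocyte and macrophage, and megakaryocyte markers in CMP and GMP, as for Tet2. They also differ in Fcer1a, while Ms4a2, Cma1 and Cpa3 did not rise with Fcer1a. By population, 1425516_at differed by -0.97 ± 0.24 in LSK (adjusted p = 0.188), -0.30 ± 0.24 in CMP (0.923) and -0.31 ± 0.24 in GMP (1). Without KO LSK replicate 2 the difference of that probe set passed in LSK (-1.36, adjusted p = 0.0221) and averaged (-0.66, adjusted p = 0.0456), while without KO LSK replicate 1 it was -0.59 in LSK and -0.40 averaged. With other arrays left out neither passed, with adjusted p up to 0.361 and 0.452. For 1460631_at the values were -0.38 ± 0.15, -0.37 ± 0.15 and -0.19 ± 0.15 (adjusted p = 0.452, 0.780 and 1). The test of a KO effect differing between populations gave adjusted p of 0.940 and 0.986 for these probe sets.

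Replated KO cells, with Xist at background, read 2677 and 2534 for 1460631_at and 1632 and 1849 for 1425516_at. The first lay among the sorted KO arrays and the second above all of them. For 1460631_at the differences from KO LSK, CMP and GMP were 0.08 ± 0.15, 0.02 ± 0.15 and 0.01 ± 0.15, with 95% intervals inside -0.33 to 0.43. For 1425516_at they were 1.02 ± 0.24 (adjusted p = 0.0173), 0.57 ± 0.24 (0.164) and 0.69 ± 0.24 (0.0852). The LSK call was lost without KO LSK replicate 1 (adjusted p = 0.0797) or either replated array (0.0592 and 0.110), and with only the arrays compared (0.133). The GMP difference passed without either KO LSK array (0.0212) and with only the arrays compared (0.0318). Probe set 1425517_s_at, at 2190 and 2240 in replated KO, differed by 0.62 ± 0.24, 0.45 ± 0.24 and 0.51 ± 0.24 (adjusted p = 0.107, 0.264 and 0.193), the first passing without KO LSK replicate 2 (0.0199).
The dim probe sets were highest in replated KO. Probe set 1451738_at read 114 and 110 there against 16.8 and 43.4 in KO LSK, 48.6 and 40.6 in KO CMP and 46.4 and 62.2 in KO GMP. Its differences were 2.06 ± 0.44 (adjusted p = 0.00965), 1.34 ± 0.44 (0.0660) and 1.07 ± 0.44 (0.139). Probe set 1436780_at read 146 and 117 there against 47.0 and 49.6 in KO LSK, 72.1 and 21.0 in KO CMP and 28.9 and 35.9 in KO GMP. Its differences were 1.44 ± 0.46 (adjusted p = 0.0583), 1.75 ± 0.46 (0.0267) and 2.02 ± 0.46 (0.0129). Of the KO LSK readings of 1451738_at and the KO CMP readings of 1436780_at, 1 each was under the floor. These calls were lost without either replated array, with adjusted p of 0.0581 and 0.0543 for 1451738_at against KO LSK, 0.149 and 0.0849 for 1436780_at against KO CMP, and 0.0878 and 0.0508 against KO GMP. With only the arrays compared, the first and second of these calls were lost too (0.0811 and 0.161). Leaving out 1 array moved the difference of 1451738_at from KO LSK to 1.37 (without KO LSK replicate 1) or 2.74 (without replicate 2), and that of 1436780_at from KO CMP to 2.64 (without KO CMP replicate 1) or 0.86 (without replicate 2). The call of 1436780_at against KO GMP was also lost without KO GMP replicate 1 (0.0821). The uncalled difference of 1451738_at from KO CMP passed without either WT LSK (0.0444) or either KO LSK array (0.0173), after quantile normalization (0.0441), with values raised to the floor (0.0344) and with only the arrays compared (0.0140). Its difference from KO GMP passed without either KO LSK array (0.0434) and with only the arrays compared (0.0194). That of 1436780_at from KO LSK passed without either KO CMP array (0.00123), after quantile normalization (0.0443), with medians subtracted (0.0498), with the filter at the floor (0.0467), with values raised to it (0.0333) and with only the arrays compared (0.0209). The Ogt probe sets therefore did not move alike, with r between 0.06 and 0.95 over the 14 arrays. No neighbouring groups in the order of levels of any Ogt probe set differed beyond their 95% interval.

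**Figure D3:**
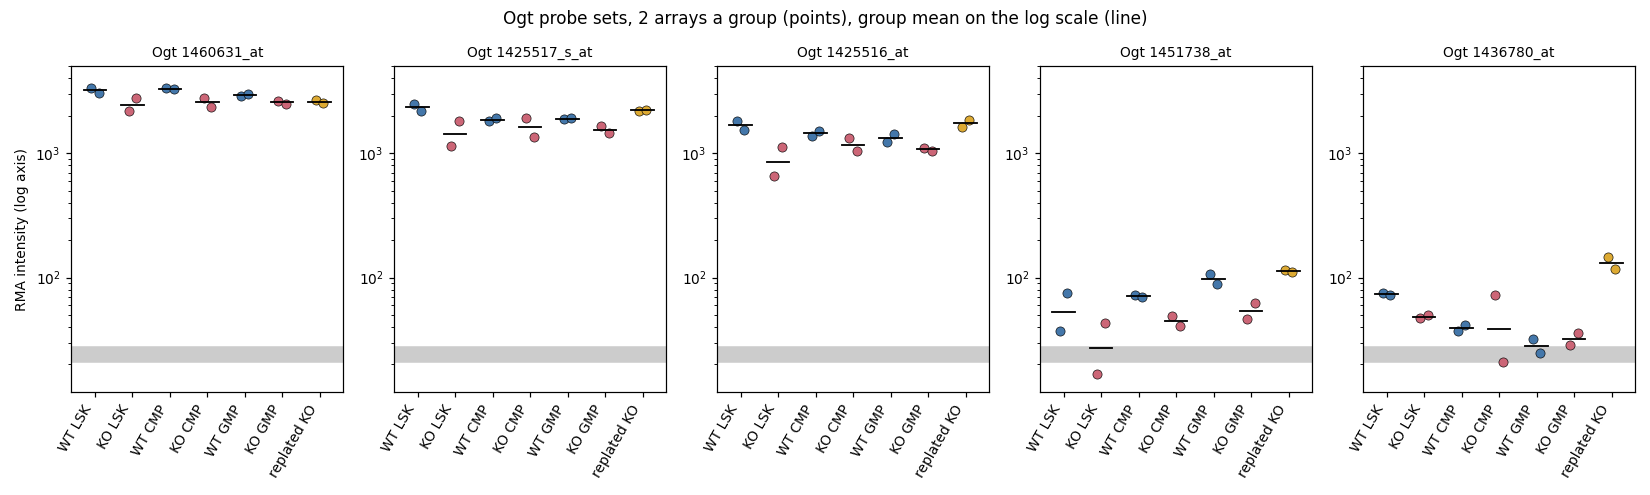
RMA intensity (log axis) of the 5 Ogt probe sets on each array, by group; points are arrays, black lines the level of the 2 arrays and the grey band the floor (20.8 to 27.8). KO points lie below WT points in each population for 1460631_at and 1425516_at, and replated KO points are the highest for 1451738_at and 1436780_at.

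**Figure D4:**
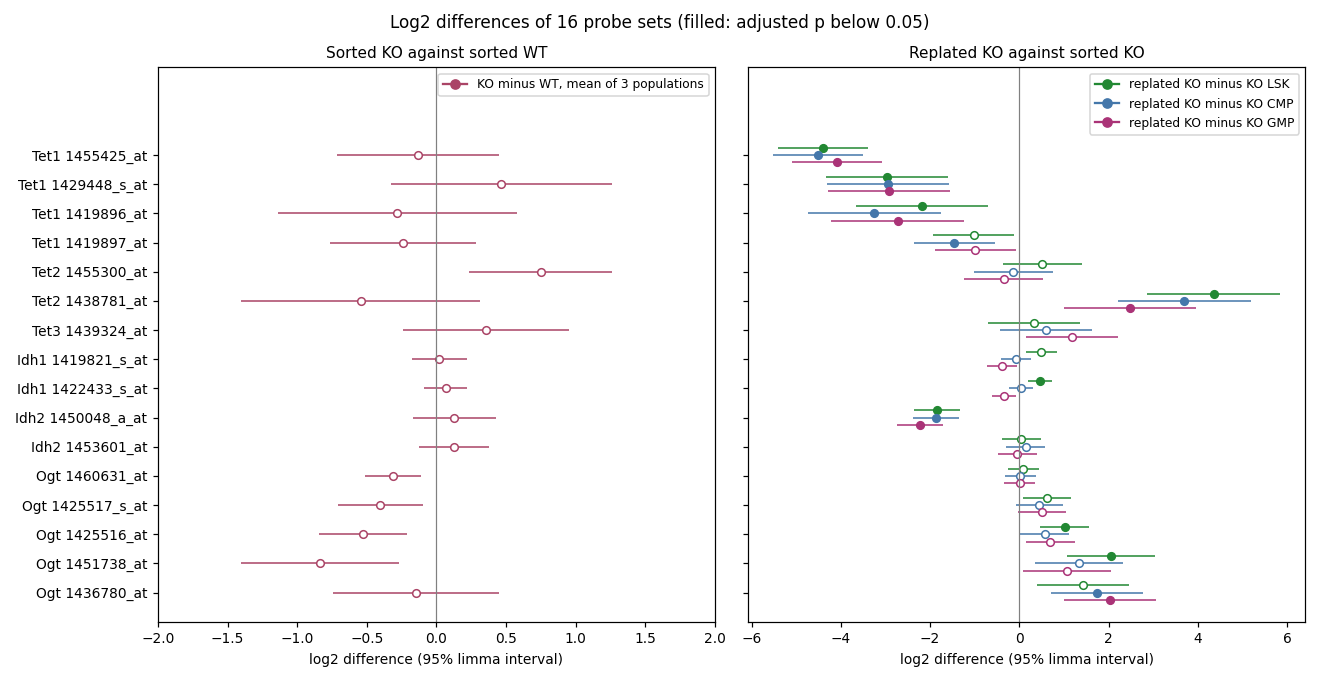
Log2 differences of the 16 probe sets with 95% limma intervals, filled where the adjusted p was under 0.05. On the left, KO minus WT averaged over 3 populations, with 0 called; on the right, replated KO minus KO LSK, KO CMP and KO GMP, with 8, 7 and 6 called. Values under the floor enter as measured, so Tet1 1419896_at is drawn as fitted and not as a bound.

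The pathways that supply and surround TET enzymes were described with 7 lists of 96 measured genes in all, each gene by its brightest probe set. KO minus WT averaged over populations called 0 of the 96 (0.242% of the 18194 genes), with 9 at an unadjusted p under 0.05. Over all probe sets, rather than genes, the share at that unadjusted p was 8.79%. By population the count was 0 in LSK (0.242%), 0 in CMP (0.11%) and 0 in GMP (0.0879%), with 7, 2 and 4 at an unadjusted p under 0.05. The unadjusted shares over all probe sets were 9.8%, 6.16% and 4.34%. WT GMP against WT LSK called 7 of the 96 (5.72% of genes), with 4 risen (2.42% of genes rose) and 3 fallen (3.3% fell). Ebf1, a B-lineage factor known as a TET2 partner from human cells, fell by 5.90 ± 0.51 (adjusted p = 0.000587), from a level of 1426 to 23.9 with 1 of the 2 GMP arrays above the floor, and Spi1, the myeloid factor PU.1, rose by 1.08 ± 0.18 (adjusted p = 0.0130). Pgd, an NADPH maker of the pentose phosphate pathway, rose by 1.39 ± 0.25 (adjusted p = 0.0163), and Bcat2, the mitochondrial branched-chain transaminase, rose by 1.05 ± 0.24 (adjusted p = 0.0438). Without either WT GMP array the count was 2, with 0 risen, and without WT LSK replicate 1 or 2 it was 4 or 11. WT CMP against WT LSK called 1 gene (1.13% of genes), and the fall (0.791% of genes fell) was that of Ebf1, at -5.89 ± 0.51 (adjusted p = 0.00163), to a level of 24.0 with 1 of the 2 CMP arrays above the floor. WT GMP against WT CMP called 0 (0.599%), with 11 at an unadjusted p under 0.05 (8.33% of all probe sets).

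Replated KO cells differed from KO LSK in 35 of the 96 genes (23.1% of all genes), with 13 risen (9.93% of all genes rose) and 22 fallen (13.2% fell). Against KO CMP the count was 38 (22.5%), with 14 risen (9.48%) and 24 fallen (13%), and against KO GMP 38 (23.4%), with 11 risen (9.34%) and 27 fallen (14%). With 1 array left out in turn these counts ranged from 22 to 38, 23 to 40 and 25 to 42, and risen genes fell to 6 in each, with replated replicate 2 the array whose loss gave 22 and 23, and either KO GMP replicate 2 or replated replicate 1 the array whose loss gave 25. In a list of 13 makers of 2-oxoglutarate and neighbouring enzymes, 1 rose and 5 fell against KO LSK, 2 and 6 against KO CMP, and 1 and 7 against KO GMP. The list holds Cs and Aco1, which act before 2-oxoglutarate is made. It also holds transaminases such as Bcat1 and Bcat2, which can use 2-oxoglutarate as well as make it. The supply of 2-oxoglutarate was not measured. The list's median differences were -0.69, -0.80 and -0.88, against 0.01, -0.07 and -0.06 over all genes. Bcat1, the cytosolic branched-chain transaminase, was under the floor in replated KO and at least 21.8-fold lower than in KO LSK (adjusted p = 2.87e-06), at least 47.6-fold lower than in KO CMP and at least 78.6-fold lower than in KO GMP. Idh3a, a subunit of the NAD-linked isocitrate dehydrogenase of the citric acid cycle, fell by 2.02 ± 0.13 from KO LSK (adjusted p = 6.54e-06), by 1.76 ± 0.13 from KO CMP and by 1.88 ± 0.13 from KO GMP. Got2, the mitochondrial aspartate transaminase, fell by 1.16 ± 0.13, 1.28 ± 0.13 and 1.42 ± 0.13 in the same order.

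Among 14 users of 2-oxoglutarate and later steps, 0 rose and 4, 4 and 5 fell against KO LSK, CMP and GMP, with median differences of -0.24, -0.38 and -0.57. Over all genes 9.93%, 9.48% and 9.34% rose and 13.2%, 13% and 14% fell in these comparisons. Suclg2, a subunit of succinyl-CoA synthetase, fell by 1.74 ± 0.15 from KO LSK (adjusted p = 5.68e-05), and D2hgdh, which removes D-2-hydroxyglutarate, fell by 0.99 ± 0.20 (adjusted p = 0.00704). Among 13 genes for removal and repair of oxidised cytosine, 2 rose in each comparison and 4, 5 and 5 fell, with medians of -0.38, -0.72 and -0.50. Ung, a uracil DNA glycosylase, fell by 2.44 ± 0.14 from KO LSK (adjusted p = 2.63e-06), while it fell by 2.91 ± 0.14 from KO CMP and fell by 2.88 ± 0.14 from KO GMP. Gadd45a, a stress gene linked to demethylation, rose by 1.74 ± 0.24 from KO GMP (adjusted p = 0.000924). Of 16 proteins that bind or regulate TET enzymes, 0 rose and 4, 6 and 5 fell, with medians of -0.08, -0.37 and -0.12. Ebf1 was under the floor in replated KO and at least 40.3-fold lower than in KO LSK (adjusted p = 7.37e-05). Spi1 fell by 1.27 ± 0.18 from KO GMP (adjusted p = 0.00113).

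The O-GlcNAc list, which holds the cycle and the synthesis of its sugar donor, had more genes risen than fallen in each comparison. Of 12 genes, 4, 5 and 4 rose and 1, 1 and 2 fell against KO LSK, CMP and GMP, with medians of 0.24, 0.76 and 0.66. Of all genes, 9.93%, 9.48% and 9.34% rose and 13.2%, 13% and 14% fell, and medians over all genes were 0.01, -0.07 and -0.06. Nagk, which salvages GlcNAc, rose by 2.80 ± 0.32 from KO LSK (adjusted p = 0.000298), and Gfpt1, the entry enzyme of the hexosamine pathway, rose by 1.89 ± 0.33 from KO CMP (adjusted p = 0.00372) and by 2.14 ± 0.33 from KO GMP (adjusted p = 0.00177). Of 6 NADPH makers, 2, 2 and 1 rose and 1, 1 and 2 fell. Me1, cytosolic malic enzyme, rose by 4.40 ± 0.56 from KO LSK (adjusted p = 0.000556), from a level of 28.8 near the floor. The NADPH list had medians of 0.38, 0.01 and -0.16. Of 22 other 2-oxoglutarate dioxygenases, 4, 3 and 3 rose and 3, 1 and 1 fell, with medians of 0.16, 0.24 and 0.10, and the 3 fallen against KO LSK are close to the share over all genes. Egln3, an oxygen-sensing prolyl hydroxylase, was under the floor in replated KO and at least 15.2-fold lower than in KO LSK (adjusted p = 4.47e-05), while P4ha1, a collagen prolyl hydroxylase, rose by 1.95 ± 0.28 (adjusted p = 0.00121).

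**Figure D5:**
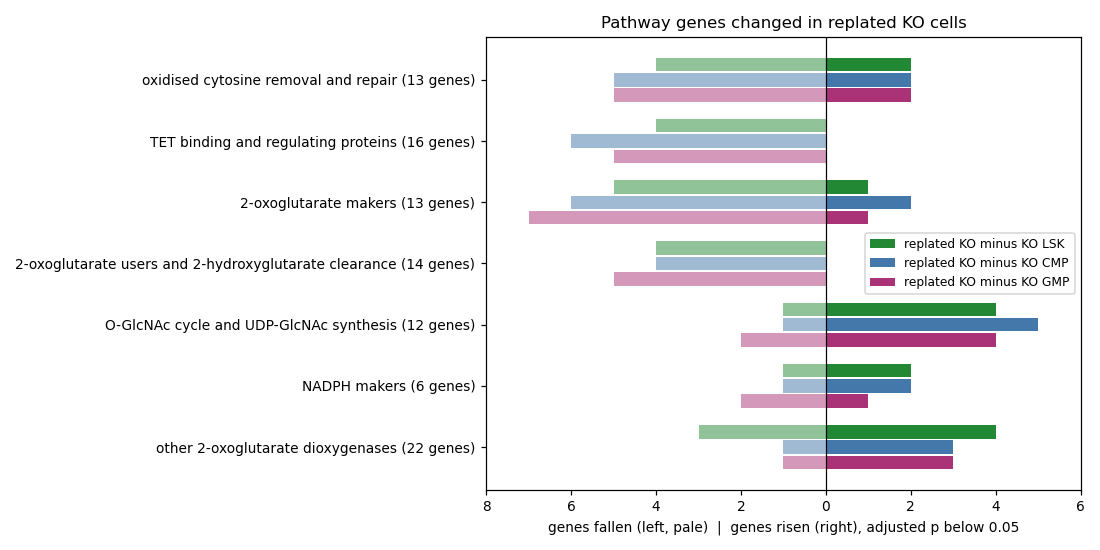
Number of genes risen (right) and fallen (left, pale) with an adjusted p under 0.05 in replated KO against KO LSK, KO CMP and KO GMP, by list; list sizes are in brackets. More genes fell than rose in the 4 upper lists, and more rose than fell in the O-GlcNAc list and among the other dioxygenases.

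The genes whose pattern over the 14 arrays was most like that of each member's brightest probe set are given as a description, since all arrays share the same groups. For Tet1 1455425_at they were Tcf4, Trim59 and Rabgap1l (Pearson r 0.99, 0.98 and 0.98). For Idh2 1450048_a_at they were Got2, Mif and Gmnn (0.99, 0.99 and 0.98), and for Idh1 1419821_s_at Pgam1, Flvcr1 and Ssr1 (0.97, 0.96 and 0.95). The likeness was lower for Tet2 1455300_at, with Braf, Phf20l1 and Usp33 (0.87, 0.86 and 0.85), and for Tet3 1439324_at, with Pi4k2a, Gabarapl2 and Yipf3 (0.89, 0.87 and 0.85). For Ogt 1460631_at the most alike were Rem2, by 2 probe sets (0.89 and 0.88), and Cd47 (0.88).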

How the data were processed

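The authors deposited RMA values per probe set, per the submitters' processing notes; for the RMA version and software, and for joint or separate normalization, the sources used here give nothing. The deposited intensity values are linear, with array medians of 31.2 to 33.0, so log2 was taken of the deposited values and nothing else was rescaled. Probes differ in how well they bind, so levels of different probe sets are not compared. Genes came from the platform annotation: 34958 probe sets name 1 gene, 932 several and 9211 are not listed, and 34754 of the first matched RefSeq symbols, with 0 renamed. limma 3.58.1 in R 4.3.3 fitted 1 mean per group over all 14 arrays and 45101 probe sets (7 residual and 2.02 prior degrees of freedom), two-sided, with Benjamini-Hochberg adjustment. A group under the floor on both arrays has only a bound, and its fold is set against the mean floor of its arrays. The fit was also run on simulated data with independent noise for each probe set and array. That run cannot speak to effects shared between arrays, such as mouse, batch or cell makeup. The number of arrays limits the precision, and slide and scan dates were not used, so no batch was tested. Members, lists and tests were chosen with earlier results of these data known. Every member probe set is named; from each list at most 3 genes with the smallest p per comparison, and as alike the 3 most correlated probe sets above the floor on at least 7 arrays.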

Additional observations from a re-analysis of the deposited data

How the results depend on the processing

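Alternatives were a second quantile normalization, subtracted array medians, a filter at the floor, values raised to the floor, eBayes with trend and robust, 1 probe set per gene, the replicate block, a fit on only the arrays compared, and each array left out in turn; the last leaves a group with 1 array that is assumed to vary like the others. For single members, 2043 values kept direction and side of the threshold, 43 gained a call, 55 lost one and 23 changed sign. These counts cover the differences called in the main fit and the uncalled ones picked for the text, not every uncalled difference. With 1 probe set per gene only 6 members are tested, and the called members fell to 1 in WT GMP against LSK, to 3, 2 and 2 in replated KO against KO LSK, CMP and GMP, and to 3 among the 7 groups. With only the arrays compared, the counts were 0 in WT GMP against LSK, 5 against KO LSK and 10 against KO GMP; the cause was not tested. In WT CMP against LSK, 1 member, Idh1 1422433_s_at, was called with values raised to the floor and with trend and robust. Leaving out 1 array gave 0 to 1 called in KO against WT (averaged and in LSK; 1 without KO LSK replicate 2), 1 to 3 in WT GMP against LSK, 3 to 8 against KO LSK, 4 to 8 against KO CMP, 3 to 10 against KO GMP and 4 to 11 among the 7 groups. The highest counts against KO GMP came without either KO LSK array, and 11 without KO LSK replicate 2. The lowest counts came without a replated, KO GMP or, for WT, WT LSK or WT GMP array. Signs changed only in differences that were not called: Idh2 1453601_at against KO LSK was -0.0032 after quantile normalization and Ogt 1460631_at against KO GMP -0.0017 with medians subtracted. With 1 array left out, the averaged KO difference ranged from -0.29 to 0.0214 for Tet1 1455425_at, -0.64 to 0.0798 for Tet1 1419896_at, -0.0262 to 0.0665 for Idh1 1419821_s_at and -0.44 to 0.15 for Ogt 1436780_at. Replated against KO LSK ranged from -0.0426 to 1.08 for Tet2 1455300_at, -0.35 to 1.02 for Tet3, -0.10 to 0.18 for Idh2 1453601_at and -0.0914 to 0.26 for Ogt 1460631_at. Against KO CMP it ranged from -0.21 to 0.0577 and -0.0100 to 0.0935 for Idh1 1419821_s_at and 1422433_s_at and -0.10 to 0.14 for Ogt 1460631_at, and against KO GMP from -0.23 to 0.14 for Idh2 1453601_at and -0.0286 to 0.0555 for Ogt 1460631_at.

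Arrays with the same replicate number did not deviate together over all probe sets. The correlations of deviations lay between -0.08 and 0.07 over 21 pairs of groups, and 0 exceeded 0.1. A correlation over all probe sets cannot show whether such arrays share a mouse, a day or a batch, or whether single probe sets shift together. With the replicate block, 8, 7 and 6 members were called in replated KO against KO LSK, CMP and GMP, 2 in WT GMP against LSK and 6 among the 7 groups. Against KO LSK, Tet1 1419896_at lost its call (adjusted p = 0.0610) and Idh1 1419821_s_at gained one (0.0398). The floor limits the dim probe sets, whose differences rest on readings near background. With 2 arrays a group, a difference has to be large against the spread to pass. Called genes of the 7 lists were also counted under the same alternatives, a choice made after seeing the data: with only the arrays compared, 25, 35 and 50 were called against KO LSK, CMP and GMP and 0 in WT GMP against LSK. In KO against WT the highest count was 2, in LSK with 1 array left out.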
